A study of Mus musculus with 8 samples.

Results

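Melanoregulin (Mreg) and 9 other genes of lysosome-related organelles were followed in mouse lung neutrophils during pneumonia. The 10 genes were Mreg, its motor-linked partner Rilp, the organelle tether genes Mlph and Myo5a, the Hermansky-Pudlak genes Hps1, Hps3, Hps4 and Hps5, the Chediak-Higashi gene Lyst and the granule priming gene Unc13d. Each was taken as the row whose RefSeq identifier maps to its symbol, and each of the 10 had 1 row among 24625. Mreg was chosen by its measured rise in these samples, so its values are given as a description with no test. The other 9 were joined to it by function, but with results of these data known. All groups were wild type (WT) mice of 6 to 12 weeks, with no transgene. The 4 PBS mice received phosphate-buffered saline through the trachea into the left lung, and the 4 SP mice received Streptococcus pneumoniae in the same volume, 2.3 µl per g of body weight. After 24 h, cells carrying Ly6G, a neutrophil surface protein, were pulled from digests of the lungs with magnetic beads, and the RNA of each sample was hybridised to 1 Affymetrix Mouse Gene 1.1 ST array. The study judged purity from stained cells in the pneumonia samples only, where it was high and the few other cells mostly looked like alveolar macrophages.

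Lysosome-related organelles are storage compartments built from the endosomal system, among them melanosomes, platelet dense granules, the lamellar bodies of alveolar type 2 cells, the lytic granules of killer cells and part of the granules of neutrophils. Their cargo is delivered by the BLOC and AP-3 complexes, and they are moved by motors and brought to the membrane by Rab27 and its effectors. Much of this is known from mouse coat colour: Mreg is the dilute suppressor gene, whose loss restores the coat of mice that lack Myo5a (dilute), Rab27a (ashen) or Mlph (leaden). Lyst is mutated in beige mice, and Hps1, Hps3, Hps4 and Hps5 in pale ear, cocoa, light ear and ruby-eye-2 mice.

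Neutrophil markers lay between 7.07 and 13.45 on every array, led by Retnlg and S100a8. Ly6g itself had no matched row, though the study reports high Ly6G mRNA in all of its samples. Of 10 with a row, 3 were lower in SP (22.6% of all rows were) and 7 did not pass the test. That count rested on single samples and on scaling. Without SP replicate 3, 8 were lower, S100a8, S100a9, Cxcr2, Ltf and Ngp being added. With array weights 8 were lower and after another quantile normalization 7. With centred arrays 0 were called by limma, and 0 had an unadjusted p under 0.05. Leaving out any other 1 sample gave 0 to 2. Array medians lay between 6.06 and 6.20 in PBS and between 5.78 and 5.91 in SP, a mean shift of -0.28. The median difference over all rows was nevertheless 0.10 as deposited, 0.38 with arrays centred on their medians and 0.016 after another quantile normalization, so differences of that size can turn with the scaling. On the principal components of all rows, SP replicate 3 was set off from its group (PC2 score -51.4, the rest of SP 16.2 to 26.8), as was PBS replicate 2 (PC3 score 34.9, the rest of PBS -23.7 to -0.82). SP replicate 3 also held the lowest SP value of 6 of the 10 genes. Values without it are given where a call among the 10 genes moved, but only for some of the list counts. Levels are log2 array signals, and because every gene has its own probes, levels are compared between samples and not between genes.

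Among the 9 genes other than Mreg, 2 rose, 4 fell and 3 did not pass the test at an adjusted p of 0.05 by limma. Myo5a and Hps1 rose, Mlph, Rilp, Unc13d and Hps5 fell, and Lyst, Hps3 and Hps4 were not called. Over all rows, 44.1% passed the same threshold, 21.5% higher and 22.6% lower in SP. Of the called rows 48.9% were higher, but 77.9% with centred arrays. At a difference of at least 2-fold, 1 rose (Myo5a) and 2 fell (Mlph and Rilp), against 17.6% of all rows, 6.37% higher and 11.3% lower. Higher rows made up 36.1% of these, 55.6% with centred arrays and 46.1% after another quantile normalization. The median difference of the 9 genes was -0.13 log2 units, against 0.10 over all rows. The PBS and SP values did not overlap for the 6 called genes, 2 higher and 4 lower, and 49.0% of all rows showed no overlap (27.2% higher and 21.8% lower). These counts describe 9 genes and are not read as a property of the set. Without SP replicate 3 there were 7 calls, Hps4 being added, and without PBS replicate 2 there were 5, Hps5 being lost. The calls at 2-fold depended on SP replicate 3 and on scaling. Without that sample Mlph was at -0.96 and Hps1 at 1.05. With the arrays centred on their medians Mlph was at -0.81 and Hps1 at 1.12, and after another quantile normalization at -0.80 and 1.23, so that in all these cases Hps1 took the place of Mlph. With array weights both passed 2-fold, at -1.04 and 1.01.

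**Figure D1:**
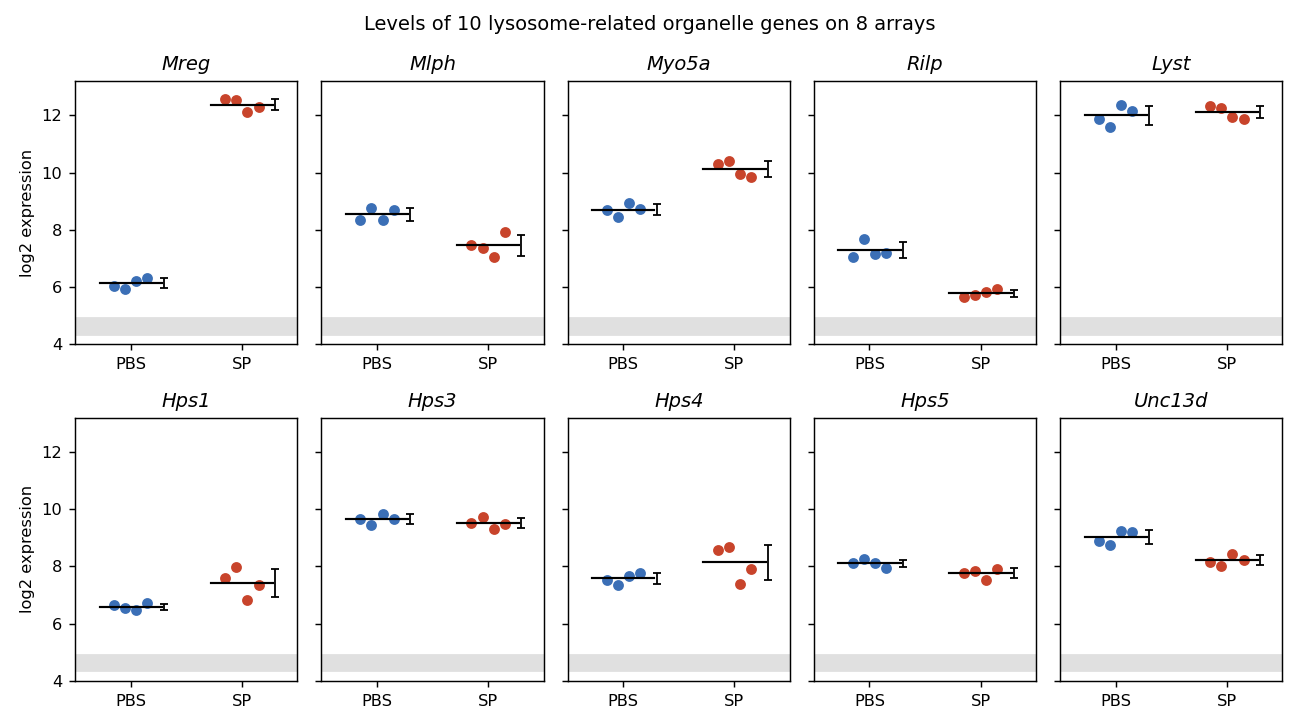
Log2 expression of the 10 genes on each of the 8 arrays (blue, 4 PBS; red, 4 SP; within a group, replicates 1 to 4 from left to right). Black lines are group means, bars are SD (n = 4), and the grey band spans the values of Y-linked genes (4.33 to 4.90). Mreg goes from 6.13 to 12.38, while the other genes move by less than 2 log2 units.

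**Figure D2:**
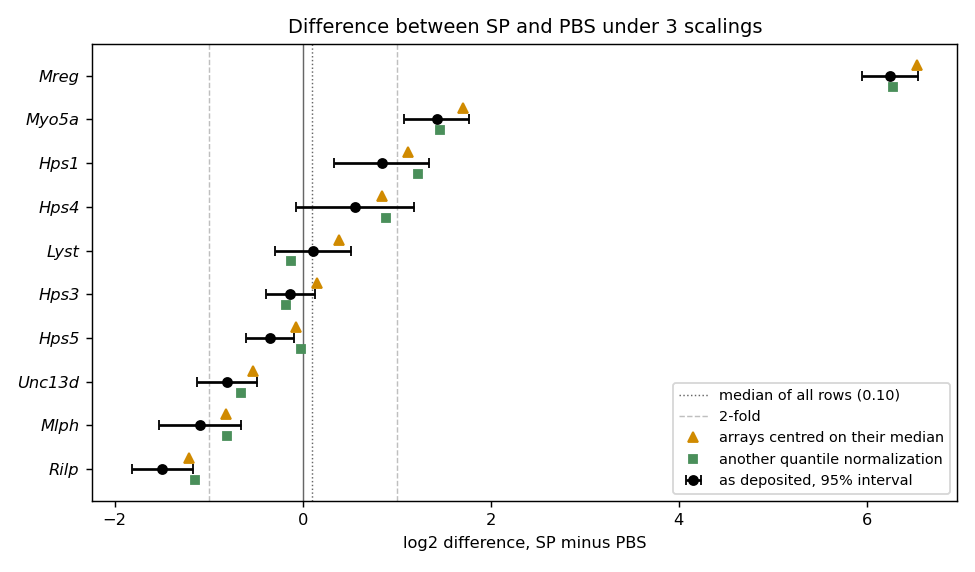
Log2 difference between SP and PBS for each gene, as deposited (black, with the 95% interval from limma), with arrays centred on their medians (triangles) and after another quantile normalization (squares). Dashed lines mark a 2-fold difference and the dotted line the median of all rows (0.10). Hps5 lies near 0 and Mlph inside the 2-fold line under both other scalings.

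Mreg encodes melanoregulin, a small lipid-anchored protein of melanosome and lysosome membranes that links these organelles to motors moving towards the cell centre. Its row (NM_001005423) stood at 6.04, 5.93, 6.23 and 6.33 in PBS replicates 1 to 4 and at 12.56, 12.53, 12.13 and 12.29 in SP replicates 1 to 4. The groups lay more than 5 log2 units apart, with little spread inside either. The means were 6.13 ± 0.18 and 12.38 ± 0.20 (SD, n = 4 each), a difference of 6.25 log2 units or 76.1-fold. It was exceeded by 1 other gene with a symbol. Without any 1 sample the difference was between 6.18 and 6.33.

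The 5 genes whose profile over the 8 arrays came closest to that of Mreg were Ifit2, Saa3, F10, Ifi205 and Fcgr1, by the root mean square difference between row-centred log2 values (0.39, 0.40, 0.49, 0.60 and 0.66). They encode an interferon-induced antiviral protein, a serum amyloid, coagulation factor X, an interferon-inducible nuclear protein and a high-affinity Fc receptor. Their own differences were 5.61, 6.07, 5.35, 5.35 and 5.03 log2 units. The likeness rests mainly on the gap between the groups, which any large rise shares. None of the genes in the lists of organelle machinery was among them. None could be, since the measure asks for a difference near that of Mreg and the rises in those lists were much smaller.

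The sequence before the Mreg start is shown because the rise of Mreg was so large. RefSeq promoter windows (mouse build GRCm38.p6) were at hand for 9 of the 10 genes, 11 windows in all, and the 250 bases before each start were searched on both strands for 6 motifs. The E-box read by MiT/TFE factors was CACGTG. The M-box bound by Mitf in pigment genes was searched as TCATGTG. The element bound by STAT dimers was TTCNNNGAA. For the AP-1 family of factors the letters were TGANTCA. The interferon response element was searched as GAAA repeated after any 2 bases, and the kappaB consensus, which NF-kappaB binds, by its usual degenerate form. The motifs were chosen after the values were known, and capitals mark matches.
Mreg, chr1:72212315-72212564, minus strand: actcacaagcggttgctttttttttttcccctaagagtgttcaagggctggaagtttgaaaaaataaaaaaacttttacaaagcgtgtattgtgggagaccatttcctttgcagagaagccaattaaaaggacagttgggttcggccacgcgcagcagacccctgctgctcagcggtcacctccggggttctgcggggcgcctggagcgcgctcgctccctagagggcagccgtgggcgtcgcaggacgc
None of the 6 motifs was found before either annotated start of Mreg, whose windows overlap, so the run above holds no capitals. That says only that these letters are absent from this stretch.

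Rilp encodes the Rab7 effector that joins late endosomes and lysosomes to dynein and dynactin, and it binds Mreg on melanosomes. Its row (NM_001029938) went the opposite way to Mreg. Values were 7.07, 7.69, 7.17 and 7.18 in PBS and 5.65, 5.73, 5.83 and 5.93 in SP. All SP values lay more than 1 log2 unit below the lowest PBS value. Rilp fell 2.82-fold (difference -1.49, SE 0.14, adjusted p = 0.000101 by limma), and the difference was -1.21 with centred arrays.

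Its relative Rilpl2, which binds myosin Va, did the reverse. It stood at 8.23, 7.60, 9.01 and 8.63 in PBS and at 11.36, 11.06, 11.22 and 10.73 in SP, a rise of 6.61-fold (adjusted p = 0.000159 by limma). The log2 ratio of Rilpl2 to Rilp within an array shifted by 4.22 between the groups, from 1.09 ± 0.83 to 5.31 ± 0.38 (SD, n = 4). In such a ratio a constant offset of the array cancels. Scaling that depends on the signal, such as quantile normalization, does not cancel. Rab7, the GTPase that recruits Rilp, rose 1.71-fold (adjusted p = 0.00455 by limma) and Plekhm1, another Rab7 effector, 2.46-fold (0.000391). In the list of Rilp relatives, Rab7 effectors, dynactin and dynein, 18 of 19 genes had a row. Of these 4 rose, 2 fell and 12 were not called, with a median of 0.13. The share called was 33.3%, against 44.1% of all rows. Dctn1, the dynactin subunit that the Rilp complex contacts, was at 9.16 ± 0.12 and 9.10 ± 0.14 (adjusted p = 0.612 by limma), with a 95% interval of the difference from -0.28 to 0.16. With centred arrays 13 genes of this list passed higher and 2 lower (83.3% called, against 74.1% of all rows).

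Myo5a, Mlph and Rab27a form the complex that ties melanosomes to actin: Rab27a sits on the organelle, melanophilin (Mlph) bridges, and myosin Va (Myo5a) is the motor. In SP the motor rose while bridge and GTPase fell. Myo5a (NM_010864) stood at 8.69, 8.44, 8.92 and 8.74 in PBS and at 10.30, 10.40, 9.94 and 9.86 in SP. It rose 2.68-fold with no overlap (difference 1.42, SE 0.15, adjusted p = 0.000177 by limma).

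Mlph (NM_053015) stood at 8.35, 8.77, 8.35 and 8.70 in PBS and at 7.48, 7.36, 7.05 and 7.92 in SP. The groups did not overlap, though SP replicate 4 came within 1 log2 unit of each PBS value. Mlph fell 2.13-fold (difference -1.09, SE 0.19, adjusted p = 0.00221 by limma), and its difference was -0.96 without SP replicate 3 (0.00351). Rab27a stood at 10.95, 10.48, 11.47 and 11.22 in PBS and at 9.93, 10.09, 10.17 and 10.13 in SP. It fell 1.93-fold (adjusted p = 0.00512 by limma), and its relative Rab27b fell 2.50-fold (9.9e-05). Within arrays, the log2 ratio of Myo5a to Mlph shifted by 2.52, from 0.16 ± 0.39 to 2.67 ± 0.50, and that of Myo5a to Rab27a by 2.37, from -2.33 ± 0.23 to 0.044 ± 0.34 (SD, n = 4). Neither ratio overlapped between the groups. That follows from the rows themselves, which each separated and in opposite directions, so the ratios are no further evidence.

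**Figure D3:**
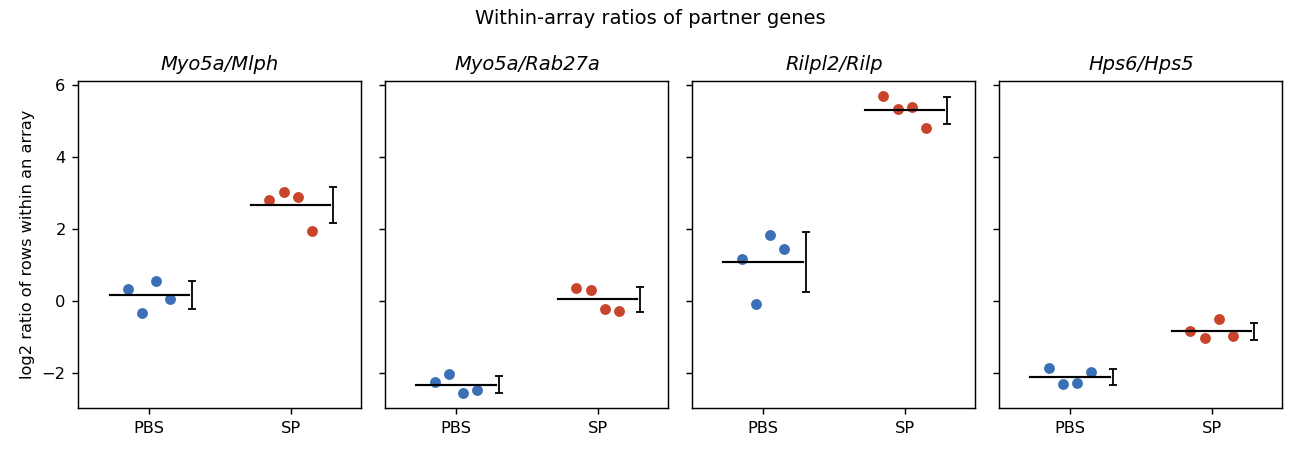
Log2 ratios of partner genes within each array (blue, 4 PBS; red, 4 SP; black lines, means; bars, SD, n = 4). The height of a ratio depends on the probes and only its shift between groups is read: 2.52 for Myo5a to Mlph, 2.37 for Myo5a to Rab27a, 4.22 for Rilpl2 to Rilp and 1.27 for Hps6 to Hps5.

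The other class V myosins fell where Myo5a rose. Myo5c, a myosin of secretory epithelia, fell 9.95-fold, its mean being 10.30 ± 0.36 in PBS and 6.98 ± 0.75 in SP (SD, n = 4, adjusted p = 0.000188 by limma). Myo5b, which serves recycling endosomes in epithelia, stood at 9.28 ± 0.23 and 6.94 ± 0.50 and fell 5.05-fold (0.000146). Of 14 genes in the list of Rab27 proteins and effectors (Sytl1 had no row), 10 fell, 2 rose (Myo5a and Sytl3) and 2 were not called. At least 2-fold were 6 of the falls and 1 rise. Called genes made up 85.7%, against 44.1% of all rows, and 78.6% against 74.1% with centred arrays. Among all rows 22.6% were lower, 11.3% by at least 2-fold. The median of the list was -0.96. Exph5, a Rab27 effector of epithelia, fell 5.56-fold (4.79e-06), and Myrip, which ties Rab27a to myosins, was at 5.48 ± 0.41 and 5.52 ± 0.22.

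Markers of lung epithelium moved with these falls. All 5 club cell, all 5 ciliated cell and 7 of 8 alveolar type 2 markers with a row were lower in SP (4 of the last without PBS replicate 2), as were 22.6% of all rows. Their summed linear signal ranged from 41533 to 56190 in PBS and 13880 to 21562 in SP for club cells, from 5986 to 9761 and 915 to 1627 for ciliated cells, and from 46251 to 59734 and 15123 to 33326 for alveolar type 2 cells. In bulk samples fewer cells of a type and less RNA per cell cannot be told apart, and the part of these cells in the falls of Mlph, Myo5b, Myo5c and the Rab27 effectors was not tested. The 5 genes most like Mlph across the arrays were Slc41a1, Pex11a, Slc35d1, Zfp40 and Cluh (root mean square difference 0.058 to 0.11), a magnesium transporter, a peroxisome protein, a nucleotide sugar transporter, a zinc finger protein and a regulator of mitochondrial messages. None of them is a marker of these lists, but the measure weighs the size of a change as well as its pattern. Markers that fell much further than Mlph could not rank near it, so nothing is read from their absence. Median differences were -1.95 for club cell, -2.80 for ciliated cell and -1.15 for alveolar type 2 markers.

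The Hermansky-Pudlak genes encode subunits of BLOC-3 (Hps1 and Hps4) and BLOC-2 (Hps3, Hps5 and Hps6). BLOC-3 activates Rab32 and Rab38, the GTPases that direct cargo to lysosome-related organelles, and BLOC-2 guides the carriers to their target. Both BLOC-3 subunits had higher means in SP, with wide spread. Hps1 (NM_019424) stood at 6.65, 6.54, 6.46 and 6.72 in PBS and at 7.61, 7.97, 6.81 and 7.34 in SP. SP replicate 3 came close to the PBS values, but the groups did not overlap. Hps1 rose 1.79-fold (difference 0.84, SE 0.22, adjusted p = 0.0158 by limma), and 1.05 log2 units without SP replicate 3 (0.00127).

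Hps4 (NM_138646) stood at 7.53, 7.35, 7.67 and 7.78 in PBS and at 8.56, 8.69, 7.40 and 7.91 in SP. SP replicate 3 lay inside the PBS range and the other SP samples above it. The difference of 0.56 was not called (adjusted p = 0.123 by limma, 95% interval -0.069 to 1.19). It passed the threshold without SP replicate 3 (0.81, adjusted p = 0.0148), with array weights (0.78, 0.00603), with centred arrays (0.84, 0.0170) and after another quantile normalization (0.89, 0.0138), all by limma. Both subunits thus had their highest SP values in replicates 1 and 2. Mreg, Myo5a, Lyst and Hps3 had this too, so it was not particular to BLOC-3.

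The BLOC-2 subunits gave 1 rise, 1 fall and 1 gene that was not called (66.7% called, against 44.1% of all rows). Hps3 (NM_001146324) stood at 9.65, 9.43, 9.85 and 9.66 in PBS and at 9.53, 9.72, 9.33 and 9.50 in SP. The groups overlapped, and the difference of -0.13 (95% interval -0.39 to 0.13) was not called (adjusted p = 0.358 by limma). Hps5 (NM_001005247) stood at 8.13, 8.26, 8.11 and 7.95 in PBS and at 7.76, 7.86, 7.52 and 7.93 in SP. The highest SP value lay just under the lowest PBS value.

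Hps5 fell 1.27-fold (difference -0.35, adjusted p = 0.0337 by limma). This call was lost under 8 of 16 alternatives: with centred arrays (-0.066, adjusted p = 0.576), another quantile normalization (-0.019, 0.864), the robust prior (0.082) or the replicate block (0.0609), and without PBS replicate 1, 2 or 3 or SP replicate 1 (0.065 to 0.0815). Hps6, the last subunit, stood at 6.28, 5.95, 5.82 and 5.97 in PBS and at 6.92, 6.82, 7.01 and 6.94 in SP, and rose 1.89-fold with no overlap (0.000269). The within-array log2 ratio of Hps6 to Hps5 shifted by 1.27, from -2.11 ± 0.23 to -0.84 ± 0.24 (SD, n = 4).

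The Rabs downstream of BLOC-3 also went opposite ways. Rab32 stood at 9.92, 8.74, 10.43 and 10.32 in PBS and at 11.80, 11.76, 11.59 and 11.66 in SP, with the most spread in PBS, where replicate 2 was low. It rose 3.60-fold (adjusted p = 0.00274 by limma). Rab38 fell 1.71-fold, from 6.30 ± 0.25 to 5.52 ± 0.33 (0.0105), a call lost after another quantile normalization (-0.60, 0.0527). Rab9, an endosomal Rab that binds BLOC-3, rose 2.71-fold (2.58e-05).

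BLOC-1, which sorts cargo out of endosomes, had 4 rises, 2 falls and 2 genes not called among 8. The share called was 75.0%, against 44.1% of all rows, and 50.0% against 74.1% with centred arrays. The median of BLOC-1 was 0.38. Dtnbp1 (dysbindin, the sandy gene) led it, at 7.95, 7.66, 8.12 and 7.99 in PBS and 10.61, 10.69, 9.82 and 10.07 in SP, a rise of 5.16-fold (adjusted p = 6.34e-05 by limma). Its 2 falls, Bloc1s1 and Snapin, were each lost under many alternatives: Bloc1s1 under 9, among them centred arrays (-0.18), the methods' t-test (0.0661), the replicate block (0.0653) and 6 left-out samples, and Snapin under 11, also with centred arrays (-0.083) and 6 left-out samples. The AP-3 adaptor, mutated in pearl and mocha mice, had 4 rises, 2 falls and 1 gene not called among 7, none at 2-fold and with a median of 0.31. That is 85.7% called, against 44.1% of all rows, and 85.7% against 74.1% with centred arrays. The AP-3 rises numbered 1 without PBS replicate 1 or SP replicate 1 and 2 without PBS replicate 2 or 4.

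HOPS and CORVET, which tether endosomes and lysosomes before fusion, had 6 rises and 4 genes not called among 10. Calls covered 60.0% of them, against 44.1% of all rows, and 70.0% against 74.1% with centred arrays. The median was 0.73 against 0.10 over all rows. Vps18 rose 2.31-fold (adjusted p = 0.0238 by limma), but did not pass by the methods' t-test (0.0564) or after leaving out PBS replicate 1, SP replicate 2 or SP replicate 3 (up to 0.0641). Vps11 rose 2.29-fold (0.000217). Over the 98 genes of all these lists that are not among the 10, 36 rose and 21 fell (58.2% called, against 44.1% of all rows), 13 and 8 at 2-fold, with a median of 0.14. With centred arrays the share called was 74.5%, against 74.1% of all rows.

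Lyst encodes a very large BEACH domain protein that limits the size of lysosomes and neutrophil granules, and its loss gives the giant granules of Chediak-Higashi disease. Its row (NM_010748) stood at 11.89, 11.61, 12.35 and 12.16 in PBS and at 12.34, 12.25, 11.96 and 11.89 in SP. The groups overlapped fully. The difference was 0.11 (95% interval -0.29 to 0.51, adjusted p = 0.606 by limma), and it turned to -0.12 after another quantile normalization and to -0.021 without PBS replicate 2.

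Its BEACH relatives went both ways, 5 lower, 2 higher and 2 not called among 9 with Lyst counted, at a median of -0.54. Called genes made up 77.8%, against 44.1% of all rows, and 55.6% against 74.1% with centred arrays. The falls numbered 3 with centred arrays or without PBS replicate 1. Wdr81, which acts in endosome maturation, rose 3.83-fold, its mean being 8.75 ± 0.097 in PBS and 10.69 ± 0.39 in SP (SD, n = 4, adjusted p = 8.69e-05 by limma). Nbea, a neuronal traffic protein, stood at 8.90 ± 0.38 and 6.73 ± 0.34 and fell 4.50-fold (0.000155). Nbeal2, the gene of platelet and neutrophil granules lost in grey platelet syndrome, was lower by 0.54 log2 units at an adjusted p of 0.0494 by limma. That call was lost under 10 alternatives, among them centred arrays (-0.26, 0.255), the methods' t-test (0.0867) and any 1 sample left out except PBS replicate 2. Wdfy4, which serves cross-presentation, was at 9.54 ± 0.32 and 9.40 ± 0.11 and was not called.

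Unc13d encodes Munc13-4, the Rab27a effector that primes lytic and neutrophil granules for fusion and is mutated in Jinx mice. Its row (NM_001009573) stood at 8.89, 8.74, 9.22 and 9.21 in PBS and at 8.17, 8.02, 8.44 and 8.22 in SP. All SP values lay below all PBS values. Unc13d fell 1.75-fold (difference -0.81, SE 0.14, adjusted p = 0.00219 by limma), as its GTPase Rab27a did. The fall was -0.52 with centred arrays (0.0195) and between -0.90 and -0.74 without any 1 sample.

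Among its fusion partners, Stx11 and Stxbp2 were not called. Stx11, its syntaxin, stood at 11.13 ± 0.67 and 11.47 ± 0.21 (adjusted p = 0.369 by limma, 95% interval of the difference -0.36 to 1.03). Stxbp2, which holds Stx11, stood at 11.12 ± 0.31 and 11.03 ± 0.087 (0.616, interval -0.43 to 0.25). Stx7, a syntaxin of late endosomes, rose 1.46-fold (0.0167), a call lost with the replicate block (0.0597). Stxbp3, a relative that serves syntaxin 4, rose 2.30-fold (2.04e-05), and Unc13b, a relative known from synapses and epithelia, fell 3.57-fold (0.000812). Of 20 priming and fusion genes with a row (Syt7 had none), 6 rose, 3 fell and 11 were not called, with a median of 0.12. That is 45.0% called, against 44.1% of all rows.

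The MiT/TFE transcription factors switch on lysosome genes (Tfeb and Tfe3), melanosome genes (Mitf) and macrophage genes (Tfec). All 4 rose, as did 21.5% of all rows, with a median of 1.05 against 0.10 over all rows. Tfec stood at 8.55, 7.59, 7.88 and 7.86 in PBS and at 10.83, 11.08, 9.73 and 10.85 in SP, a rise of 6.28-fold (adjusted p = 0.000308 by limma). Mitf stood at 7.35, 7.03, 7.48 and 7.33 in PBS and at 8.48, 8.58, 7.74 and 8.40 in SP, a rise of 2.00-fold (0.00348). Tfe3 rose 2.14-fold (0.00212). Tfeb rose 1.88-fold (0.0403), but did not pass by the methods' t-test (0.0805), with the replicate block (0.0968) or after leaving out PBS replicate 1 or 2 or SP replicate 1 or 2 (up to 0.101).

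The pigment genes that Mitf drives in melanocytes stayed near the array background. The 9 genes of the pigment list, which also served as markers of melanocytes, lay between 4.08 and 5.16 on all arrays, about the range of the Y-linked genes. The calls of Tyrp1 (0.22) and Oca2 (0.26) were the only ones in this list and were small. Each was lost under 8 alternatives, such as another quantile normalization (0.09 and 0.11). With centred arrays all 9 genes passed as higher, but so did all 3 Y-linked genes with a row and 14219 of 24625 rows. The median with centred arrays was 0.49 for the pigment list and 0.46 for the Y-linked genes. Mast cell and basophil markers lay between 4.23 and 5.29.

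Motif matches before the starts are shown for the members whose windows hold letters read by these factors. CACGTG occurred in the windows of 3 genes, Hps3, Hps5 (2 matches) and Mlph, and in 6.02% of 32851 windows of all genes. Hps1 held TCATGTG (3.25% of all windows) and a kappaB match (7.25%), and Lyst held TTCNNNGAA (7.02%). TGANTCA (6.75%) and the interferon response element (2.98%) were found in no window of the 10 genes. The E-box lay 48 to 43 bases before the Mlph start, 15 to 10 before that of Hps3 and 227 to 222 and 192 to 187 before that of Hps5. In Hps1 the M-box lay 15 to 9 bases and the kappaB match 220 to 211 bases before the upstream start.
Mlph, chr1:90914850-90915099, plus strand: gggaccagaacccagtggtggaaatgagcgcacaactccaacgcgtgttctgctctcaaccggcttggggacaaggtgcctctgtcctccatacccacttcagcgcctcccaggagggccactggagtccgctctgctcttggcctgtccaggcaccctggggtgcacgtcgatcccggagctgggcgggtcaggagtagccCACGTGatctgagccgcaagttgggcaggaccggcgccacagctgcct
Hps3, chr3:20035311-20035560, minus strand: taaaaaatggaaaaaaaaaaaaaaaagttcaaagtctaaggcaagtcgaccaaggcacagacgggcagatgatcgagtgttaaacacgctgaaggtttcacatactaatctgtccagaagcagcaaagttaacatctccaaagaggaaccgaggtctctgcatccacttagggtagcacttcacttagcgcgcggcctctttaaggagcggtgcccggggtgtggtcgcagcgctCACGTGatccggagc
Hps5, chr7:46795882-46796131, minus strand: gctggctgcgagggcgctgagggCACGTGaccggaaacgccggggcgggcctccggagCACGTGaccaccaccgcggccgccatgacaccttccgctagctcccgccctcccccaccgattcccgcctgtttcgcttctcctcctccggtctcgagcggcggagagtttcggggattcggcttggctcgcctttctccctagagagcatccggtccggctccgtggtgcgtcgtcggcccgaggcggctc
Hps1, chr19:42779979-42780228, minus strand: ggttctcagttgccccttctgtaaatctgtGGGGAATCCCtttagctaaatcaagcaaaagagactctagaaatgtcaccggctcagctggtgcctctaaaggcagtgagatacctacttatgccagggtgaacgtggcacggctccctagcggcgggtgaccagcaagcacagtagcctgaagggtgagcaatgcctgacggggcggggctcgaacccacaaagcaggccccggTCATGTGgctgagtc
Of the 3 genes with the E-box, Mlph fell, Hps5 fell in a call lost under 8 alternatives, and Hps3 was not called. Whether MiT/TFE factors act on these genes was not tested. A match describes the sequence and not binding.

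Markers of phagocytes moved unevenly with the rises of Mreg, Myo5a and the MiT/TFE genes. Of 9 monocyte and interstitial macrophage markers with a row, 4 were higher in SP (among them Ccr2 by 0.89 and Adgre1 by 1.27 log2 units) and 5 were not called. Adgre1 did not pass by the methods' t-test (0.0541) or without SP replicate 1 (0.062) or 2 (0.0536), and the count fell to 2 in each of these cases. Without SP replicate 3 the count was 5, with Csf1r added (0.87, adjusted p = 0.0379 by limma). Their summed linear signal ranged from 2794 to 5425 in PBS and from 4296 to 8973 in SP, so the groups overlapped. Alveolar macrophage markers had 4 falls, all at least 2-fold, and 1 rise among 8, with a median of -1.18. Their sums were 3839 to 6889 in PBS and 5025 to 7226 in SP. Chil3 was the brightest of these rows and the 1 rise (0.97), so it weighs most in the sums. Its call was lost by the methods' t-test (0.0515), with the replicate block (0.0662) and after another quantile normalization (0.0886), among others. The part of phagocytes in the rises of Mreg, Myo5a and the MiT/TFE genes was not tested. Of markers of other cells, 5 of 5 for B cells, 5 of 6 for endothelium, 2 of 6 for dendritic cells and 2 of 6 for platelets were lower in SP. Among 5 mast cell and basophil markers 1 was higher. Over all rows 21.5% were higher and 22.6% lower. Among 8 T and NK cell markers 0 were called by limma and 0 had an unadjusted p under 0.05, but 4 were higher with centred arrays and 3 with array weights. That is 50.0% called, against 74.1% of all rows, with centred arrays and 37.5%, against 54.7%, with array weights.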

How the data were processed

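RNA of Ly6G-selected lung neutrophils from 4 PBS and 4 SP mice was measured on 8 arrays. Per the study's methods and the labels, the authors processed the signals by RMA: background correction, adjustment for GC content and sequence, quantile normalization and median polish, with probesets joined per gene or transcript. The deposited values are log2 expression, not relative to a control. Quantile normalization hides changes in total RNA. All 24625 rows and 8 columns were used, with no value missing and no duplicate arrays. The software names in the labels are Affymetrix Expression Console, RMA and Partek. The number of arrays limits the precision. In the study's legend each sample came from a mouse, so the p-values are read as measuring spread between animals.

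RefSeq identifiers were matched without versions to symbols of GRCm38.p6, which named 80.9% of rows. SP was compared with PBS by limma (version 3.58.1, R 4.3.3, lmFit and eBayes, no covariates, two-sided, Benjamini-Hochberg over all rows), at an adjusted p of 0.05 and, for 2-fold, 1 log2 unit. The members and lists were chosen with earlier results of these data known, as was the rule for named genes: the 10 genes, 16 fixed partners (Sytl1 had no row), the largest 2-fold rise and fall of each list without overlap, the 5 profiles nearest to Mreg and to Mlph, and marker and Y-linked genes. Exph5, Myo5b, Vps11, Plekhm1, Rab9, Tfe3, Sytl3, Bloc1s1, Snapin, Tyrp1, Oca2, Ccr2, Stx7, S100a9, Cxcr2, Ltf and Ngp were named after their values were seen. Counts of the list genes are given with no set test. Same-numbered samples did not deviate together, so replicate numbers were not used as a block. Alternatives were the methods' t-test, a robust prior with trend, the replicate block, array weights, centred arrays, another quantile normalization, dim rows left out, 1 row per symbol, each sample left out, and limma treat. Counts per list under them were added after seeing the data. The fits were tested on simulated data beforehand. Figures were made with Python 3.11.15. One flag rule was used: a gap above 0.829 of the range among 4 samples.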

Additional observations from a re-analysis of the deposited data

Results flagged for a closer look

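Among 43 named genes in 2 groups, 86 sets of 4 values were examined for a single sample far from the other 3, which chance gives in about 1 of 20. There were 2 such cases and none among the 10 genes. Dctn1 was at 8.90 in SP replicate 3, against 9.16 to 9.18 in the other SP samples. F10 was at 6.40 in PBS replicate 2, against 7.10 to 7.18 in the other PBS samples. These are the samples that stood apart on the principal components.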

How the results depend on the processing

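The difference of Mreg stayed positive under all alternatives and was 6.53 with centred arrays and 6.18 to 6.33 without any 1 sample. The count of called genes among the other 9 was 5 to 7 under every alternative, and 5 to 7 without any 1 sample. The count at 2-fold was 3 (4 with array weights), and also 3 without any 1 sample, but not always of the same genes: without SP replicate 3, with centred arrays and after another quantile normalization Hps1 replaced Mlph. It was 0 by limma treat against 1 log2 unit, where 2 genes had an unadjusted p under 0.05 and the lowest adjusted p was 0.0593. Treat asks for more than 2-fold, which is why it calls fewer. Of 144 single values of these 9 genes, 3 reversed, all of genes not called: Lyst (-0.12 after another quantile normalization, -0.021 without PBS replicate 2, range -0.021 to 0.23) and Hps3 (0.15 with centred arrays). Another 8 lost a call (all Hps5) and 4 gained one (all Hps4). Called rows numbered 18255 with centred arrays against 10860, and 8200 to 10907 without any 1 sample. Called rows at 2-fold numbered 1572 by treat against 4341, and 3982 to 4657 without any 1 sample. Of the genes in all lists, 63 were called, 79 with centred arrays, 69 with array weights and 48 to 61 without any 1 sample. Same-numbered samples correlated in their deviations at 0.016, 0.030, 0.35 and -0.27, so the numbers were not taken as pairs; with the replicate block, 9842 rows, 4324 at 2-fold, 56 list genes and 5 of the 9 genes were called. Genes near the Y-linked range are at the floor of the arrays, where falls cannot be seen, and with 4 samples a group differences like those of Lyst and Hps3 are known only to the width of their intervals.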
